A study of Mus musculus with 2031 samples.

Results

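The extracellular matrix genes described here are 60 genes of the mouse genome: all genes whose symbols name a collagen chain (Col, a number, a, a number) or a laminin chain (*Lama*, *Lamb* or *Lamc* and a number), together with the nidogens *Nid1* and *Nid2*, fibronectin (*Fn1*), perlecan (*Hspg2*) and agrin (*Agrn*). They were taken by symbol from the 49671 genes counted, without a cutoff on any measured value. Earlier results of these data were known when they were chosen. They comprise 44 collagen chains and 11 laminin chains besides the 5 other genes, and are described in the order of their roles: network collagens, laminin chains, nidogens and proteoglycans, fibronectin, fibrillar collagens and the remaining collagens.

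A basement membrane is a thin sheet of matrix that surrounds vessels and separates tissues. It is built from a network of type IV collagen and a network of laminins, each laminin being a trimer of an alpha, a beta and a gamma chain, and the networks are joined by nidogens and by the heparan sulfate proteoglycans perlecan and agrin. In brain capillaries, endothelial cells and pericytes share a vascular basement membrane, and the astrocyte endfeet that cover the vessel rest on a parenchymal basement membrane of their own, to which astrocytes contribute laminin and agrin.

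Single cells were sorted from the cortex and hippocampus of C57BL/6J mice at postnatal day 56, with no transgene and no treatment in any group. Each of the 2 cortical suspensions came from 1 mouse and each of the 2 hippocampal suspensions from 4 pooled mice, so that brain area cannot be told apart from the number of mice pooled and from the litter. The gate took cells that bound ACSA-2, an antibody against the astrocyte surface protein ATP1B2, and the vessel cells are therefore those that passed a gate set for astrocytes. Cell types are those the authors assigned by clustering the same counts: mural cells, which are the pericytes and smooth muscle cells of vessels (27 and 12 cells in cortex 1 and 2, 48 and 47 in hippocampus 1 and 2), 30 endothelial cells, and 1755 astrocytes of the subtypes AST1 (657 cells), AST2 (555), AST3 (452) and AST4 (91). The suspension is the replicate throughout, and p values describe the spread between suspensions only. The cells held 600758 to 3238215 counts, with a median of 1458411, and levels are given in CPM, the usual scaling of a count by the library total, here of the summed gene counts of a cell type in a suspension. The reads carried no molecular identifiers, so that intervals and floors cover counting error only.

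The types carried their markers, with exceptions that touch matrix genes. Most mural cells had counts of all 5 pericyte markers (*Kcnj8*, *Abcc9*, *Atp13a5*, *Vtn*, *Higd1b*), whereas 43 had none and 78 had 1 of 5 smooth muscle markers. All 30 endothelial cells had at least 5 of 8 endothelial markers, yet 20 of them also had counts of 2 or more of 10 mural markers. The summed mural list stood at 7281 to 11310 CPM in endothelial suspensions and at 23750 to 30960 CPM in mural suspensions, with *Acta2* and *Tagln* at 0 in endothelial cells. In the 10 endothelial cells with 1 mural marker, that marker was *Rgs5*. It stood at 6346 CPM over these cells, with all other mural markers at 0, so much of the endothelial sum was this gene. The 8 astrocyte markers summed to 3145 to 3485 CPM in mural cells and to 43090 to 44720 CPM in astrocytes. Finally, 4 cells carried 7 or 8 of 10 markers of perivascular and meningeal fibroblasts (among them *Dcn*, *Lum* and *Igf2*): 2 typed as mural, with 0 and 1 mural markers, and 2 typed as AST4, each with 4 of 8 astrocyte markers.

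**Figure D1:**
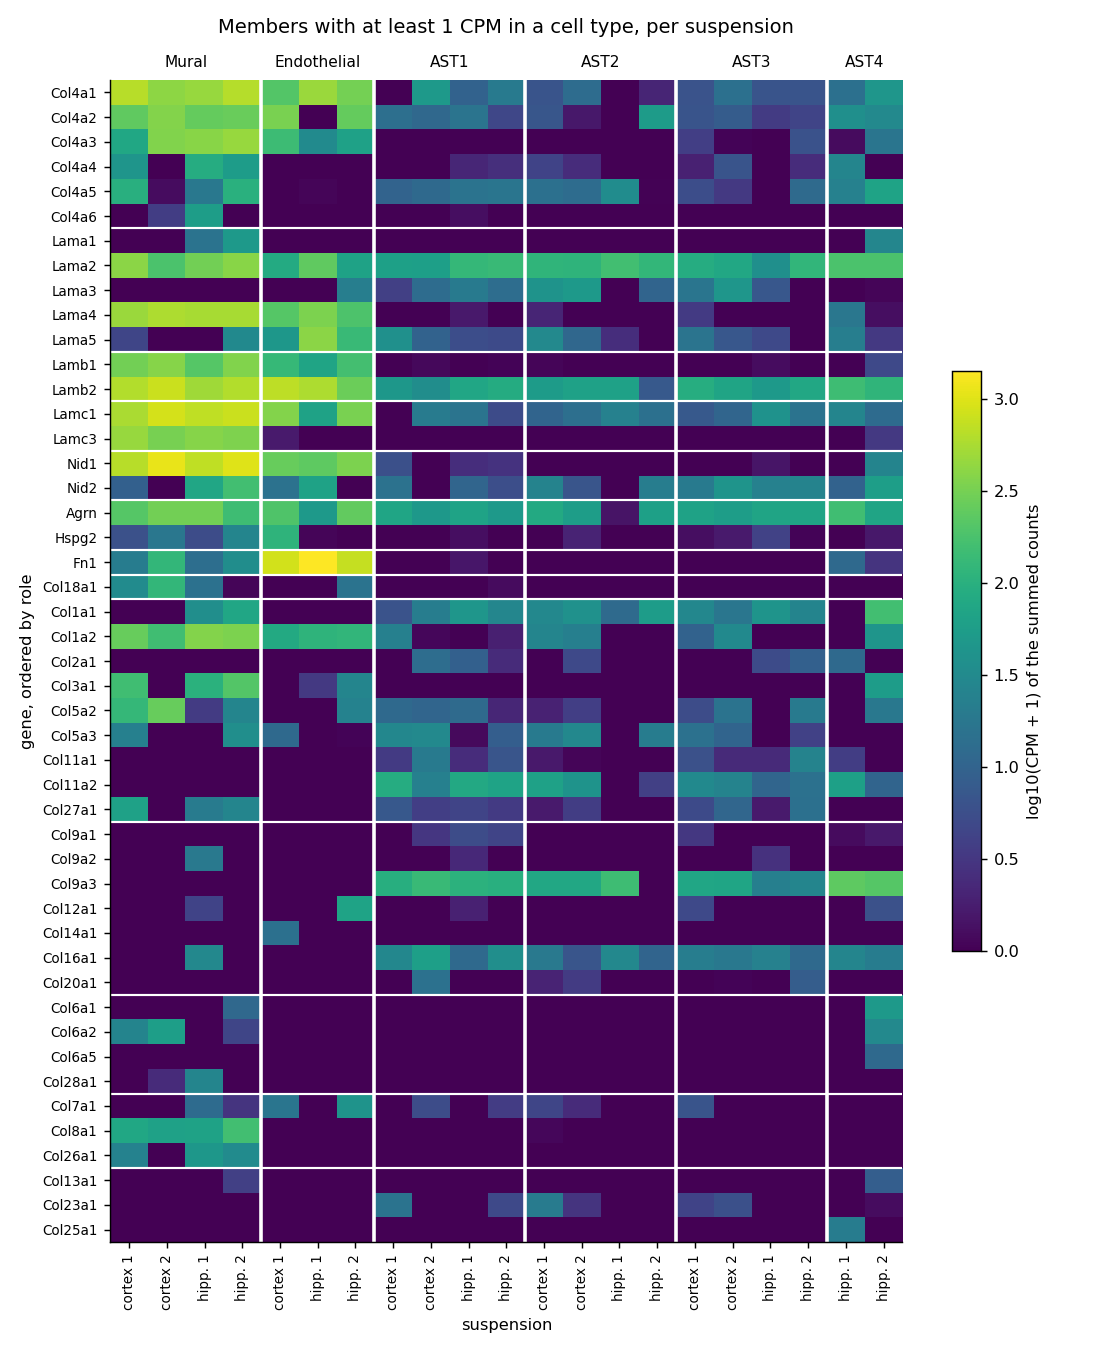
Level of the 47 matrix genes that reached 1 CPM in at least 1 cell type (rows, by role, white lines between roles) in each suspension of mural, endothelial and AST1 to AST4 cells (columns). Color is log10(CPM + 1) of the summed counts; *Nid1* lies between 654 and 1130 CPM in the mural columns, *Fn1* between 758 and 1431 CPM in the endothelial ones, and *Col9a3* and *Col11a2* are dark in all mural and endothelial columns.

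Matrix genes took the largest share of the counts in mural cells. Their summed level was 5621 and 6584 CPM in the mural cells of the cortical suspensions and 5794 and 6986 CPM in those of the hippocampal suspensions. Endothelial cells, with sums of at least 5 cells in 3 suspensions, held 3782 CPM (cortex 1), 4100 CPM (hippocampus 1) and 3455 CPM (hippocampus 2), and astrocytes held 558 to 642 CPM in 4 suspensions. The ranges of the cell types did not overlap. With every cell thinned to 600000 counts, a mural cell had counts of 7 of the 60 genes at the median, an endothelial cell of 6 and an astrocyte of 2. At least 1 count was found for 37 of the 60 genes in mural cells, 25 in endothelial cells and 53 in the far more numerous astrocytes, and 13, 12 and 1 of them reached 100 CPM over all cells of the type. *Col6a3*, *Col6a4*, *Col6a6*, *Col8a2* and *Col19a1* had 0 counts in all of these cells.

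The first comparison asked which matrix genes differ in level between mural cells and astrocytes. Of the 40 genes with enough counts to be tested, 10 were higher in mural cells, where 3.25% of all 15982 genes tested were, and 4 were lower, where 16.7% of all genes were, by edgeR's quasi-likelihood test at an adjusted p under 0.05. The genes higher in mural cells were the type IV collagens *Col4a1* and *Col4a3*, the laminin chains *Lama4*, *Lamb1*, *Lamb2*, *Lamc1* and *Lamc3*, *Nid1*, and the short collagens *Col8a1* and *Col26a1*. The lower ones were the type IX and type XI collagen chains *Col9a1*, *Col9a3*, *Col11a1* and *Col11a2*. Of these, *Col9a1* and *Col11a1* were counted in 15 and 34 of 1755 astrocytes. These shares lie under the 2.24% of mural cells with a count that 0 counts allow. The median log2 difference of the 40 genes was 2.79, against -1.22 over all genes tested. It stayed at 2.79 with the 8 genes that were at 0 in either type set to the value that a floor of 3 counts gives. With the suspension as a block, which pairs the cell types of the same mice, 4 genes were called, *Col4a1*, *Lamb1*, *Lamb2* and *Lamc1*, all higher in mural cells, where 3.05% of all genes were called in either direction. Without cortex 1, cortex 2, hippocampus 1 or hippocampus 2 the number called was 2, 6, 5 and 3, all higher in mural cells, where 1.61%, 2.7%, 2.48% and 1.66% of all genes were called in either direction, and *Col4a1* and *Lamb2* were called in each of these fits.

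Type IV collagen forms the covalent network of the sheet, as trimers of paired chains. *Col4a1*, whose product joins that of *Col4a2* in the ubiquitous trimer, had mural levels of 655 and 414 CPM in cortex 1 and 2 and of 464 and 633 CPM in hippocampus 1 and 2. Its astrocyte levels were 4.83, 16.3, 8.54 and 18.0 CPM in the same order. The lowest mural value was thus far above the highest astrocyte value, and the log2 difference was 4.93 ± 0.52 (SE, adjusted p = 0.000837, edgeR). *Col4a2* had mural levels of 242.4, 370.9, 257.7 and 269.8 CPM against 4.00 to 14.9 CPM in astrocytes, again without overlap, yet its log2 difference of 4.45 ± 1.68 did not pass the test (adjusted p = 0.109, edgeR). At the level of single cells, 47 mural cells had counts of both genes, 45 of *Col4a1* alone and 14 of *Col4a2* alone. Per kilobase of exon, the mural level of *Col4a1* was 0.990 to 2.40 times that of *Col4a2* over the 4 suspensions.

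*Col4a3* encodes a chain of the second type IV network, known best from the glomerular membrane of the kidney. It had mural levels of 75.17, 363.7, 390.1 and 467.5 CPM, of which cortex 1 was the low value, and 0.0232 to 2.86 CPM in astrocytes, where 10 of 1755 cells had a count. The log2 difference was 7.77 ± 1.83 (adjusted p = 0.0179, edgeR). *C430014B12Rik* on the opposite strand shares 5.65% of its exon bases, and the counts do not tell strands apart. *Col4a4*, the partner that lies head to head with it, stood at 43.8, 0, 88.3 and 55.0 CPM in mural cells and at 1.35 to 3.48 CPM in astrocytes and was not called (log2 difference 3.48 ± 2.01, adjusted p = 0.335, edgeR). Of the 13 mural cells with *Col4a4*, 8 also had *Col4a3* and 5 did not, while 31 mural cells had *Col4a3* alone. Per kilobase *Col4a3* was 1.83 to 9.05 times as high in the 3 suspensions where both were counted. The remaining pair, *Col4a5* and *Col4a6*, was counted in 11 and 5 mural cells, at 0.270 to 100.5 CPM and 0 to 56.8 CPM.

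The stretch between *Col4a4* and *Col4a3* is shown because these genes, whose mural levels are given above, are transcribed in opposite directions from it. Their annotated starts in GRCm38 leave 71 bases at chr1:82586850-82586920, of which 69.01% are G or C. On the plus strand, from the *Col4a4* side to the *Col4a3* side, with the motif CACCC in capitals, it reads:
Col4a4-Col4a3 intergenic stretch: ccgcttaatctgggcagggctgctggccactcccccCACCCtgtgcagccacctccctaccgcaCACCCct
The motif CACCC occurs 2 times and was chosen after the letters were read; 20.3% of 32851 annotated promoter windows cut to the same length hold it on either strand. The GC box GGGCGG has no match in this window on either strand, and 20.7% of the promoter windows hold it. The CCAAT box, which 13.3% of them hold, has no match here. The TATA box, searched as TATAAA and held by 4.41%, has none either. The pair *Col4a1* and *Col4a2* on chromosome 8 leaves no such stretch, as their annotated starts overlap by 22 bases.

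Laminin trimers bind the cell surface and each other. *Lamb2*, the beta chain of many vascular and muscle laminins, had mural levels of 611 and 805 CPM in cortex 1 and 2 and of 501 and 614 CPM in hippocampus 1 and 2. In astrocytes it stood at 68.9, 62.5, 76.0 and 84.7 CPM. The groups were apart by 2.49 ± 0.30 on the log2 scale (adjusted p = 0.00133, edgeR), the smallest standard error of the genes called. *Lamc1*, the gamma chain shared by most laminins, stood at 570, 905, 705 and 806 CPM in mural cells and at 7.15, 12.7, 21.2 and 7.65 CPM in astrocytes (log2 difference 5.34 ± 0.71, adjusted p = 0.00260, edgeR). *Lamb1*, the other common beta chain, was at 300.6, 386.6, 208.6 and 359.7 CPM in mural cells, whereas 6 of 1755 astrocytes had a count and their levels were 0.0183 to 0.490 CPM (log2 difference 10.74 ± 1.38, adjusted p = 0.00214, edgeR). The beta chains therefore differed in their proportion: per kilobase, *Lamb2* was 2.78 to 3.92 times as high as *Lamb1* in mural cells and 281.6 to 5568 times as high in astrocytes, with no overlap between the types.

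The alpha chains carry the cell-binding end of the trimer. *Lama4*, the alpha chain of the endothelial laminins, varied least among the 8 highest genes of mural cells, with 485, 592, 547 and 560 CPM, and was at 0.00131 to 2.20 CPM in astrocytes (log2 difference 8.65 ± 1.96, adjusted p = 0.0176, edgeR). *Lama2*, the alpha chain of muscle and of the astrocyte endfoot, had 399.8, 184.3, 301.2 and 390.7 CPM in mural cells and 98.59, 94.19, 116.3 and 137.7 CPM in astrocytes. All mural values of *Lama2* lay above all astrocyte values, but the log2 difference of 0.94 ± 0.42 did not pass the test (adjusted p = 0.178, edgeR). Per kilobase, *Lama4* was 1.64 to 4.35 times as high as *Lama2* in mural cells and at most 0.0256 times as high in astrocytes. *Lama3*, the alpha chain of epithelial anchoring laminins, had 0 counts in mural cells, which is under the 0.0175 CPM that 3 counts would give. The 0 allows a share of up to 2.24% of cells with a count, which is no limit on the cells that express the gene. It was counted in 160 astrocytes, at 1389 times the level that 3 counts would give in mural cells, and was not called (adjusted p = 0.0673, edgeR). *Lama1* and *Lama5* reached 0 to 50.4 CPM and 0 to 30.2 CPM in mural suspensions, with 74.1% and 92.9% of their mural counts in 1 cell each. The *Lama1* cell was that of hippocampus 2 with 8 fibroblast markers and 1 mural marker. The *Lama5* cell, also of hippocampus 2, had 5 endothelial and 7 mural markers. *Lamc3*, a gamma chain with a narrow distribution, was at 461.5, 322.6, 380.1 and 348.4 CPM in mural cells and was counted in 1 astrocyte (log2 difference 12.08 ± 3.35, adjusted p = 0.0332, edgeR), and 45 mural cells had counts of both *Lamc1* and *Lamc3*. *Lamb3*, a chain of epithelial laminin, had 0 counts in mural and endothelial cells and was counted in 1 astrocyte.

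Nidogens bridge the laminin and collagen IV networks. *Nid1* had the highest mean level of these genes in mural cells, at 654 and 1130 CPM in cortex 1 and 2 and 718 and 1015 CPM in hippocampus 1 and 2 (mean 879 ± 230, SD, n = 4), and per kilobase it was also first, at 120 CPM, ahead of *Lamb2* at 96.5, *Lamc1* at 87.8 and *Col4a1* at 74.3. Astrocytes had 0.600, 0, 1.22 and 4.13 CPM of it, in 9 of 1755 cells. The log2 difference was 9.10 ± 1.96 (adjusted p = 0.0176, edgeR). *Nid2*, its close relative, was counted in 99 astrocytes, at 11.9 to 21.1 CPM, and in 11 mural cells, at 0 to 155.6 CPM (log2 difference 0.23 ± 2.61, adjusted p = 0.979, edgeR). Per kilobase *Nid1* was 4.86 to 58.6 times as high as *Nid2* in the 3 mural suspensions that had both, and at most 0.197 times as high in astrocytes, although 8.45% of the exon bases of *Nid2* are shared with *Rtraf* on the opposite strand.

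Of the proteoglycans, agrin organizes the endfoot membrane and the neuromuscular junction, and perlecan is the main heparan sulfate proteoglycan of vessel walls. *Agrn* stood at 207.7, 305.3, 303.7 and 149.3 CPM in mural cells and at 74.2, 55.4, 74.4 and 56.5 CPM in astrocytes. These values did not overlap, but their log2 difference of 1.28 ± 0.54 did not pass the test (adjusted p = 0.153, edgeR). *Hspg2* was at 4.37 to 26.5 CPM in mural cells and at 0.0869 to 0.834 CPM in astrocytes, and per kilobase *Agrn* was at least 8.69 times as high as *Hspg2* in each mural suspension. *Fn1*, the soluble and fibrillar glycoprotein that binds integrins and collagen, was counted in 4 mural cells (19.86, 122.7, 12.75 and 34.65 CPM) and 3 of 1755 astrocytes, and was not called between them (log2 difference 7.15 ± 2.67, adjusted p = 0.105, edgeR). The mural cells with a count, 1 per suspension, had 1, 5, 1 and 3 endothelial markers in that order.

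Fibrillar and short collagens were split between the types. *Col8a1*, a short-chain collagen of vessel walls, was at 74.17, 63.60, 65.31 and 156.1 CPM in mural cells and was counted in 1 astrocyte (log2 difference 13.35 ± 3.46, adjusted p = 0.0366, edgeR). *Col26a1* was counted in 8 mural cells, at 0 to 45.95 CPM, and 1 count of it was found in all astrocytes (adjusted p = 0.0248, edgeR). *Col1a2* and *Col3a1*, fibrillar chains of connective tissue, were found at 154.3 to 375.8 CPM and at 0 to 206.4 CPM in mural cells without being called (adjusted p = 0.177 and 0.185, edgeR). The only astrocytes with counts of *Col3a1* were 2 AST4 cells with 8 fibroblast markers. Without them, a choice made after seeing the data, *Col3a1* was called higher in mural cells by edgeR. That fit called 11 of 39 genes higher, where 3.38% of all genes were. *Col1a1*, the partner of *Col1a2* in type I collagen, behaved otherwise. It was counted in 2 mural cells, those with 7 and 8 fibroblast markers, while 59 mural cells had counts of *Col1a2*. Without those 2 cells and another that had 4 fibroblast markers, *Col1a1* was at 0 in the remaining mural cells, *Col3a1* was at 141.2 CPM and *Col1a2* was still counted in 57 cells. Of the collagens not described elsewhere, *Col27a1* was at 29.3 CPM over all mural cells and 3.75 CPM over all astrocytes, *Col5a3* at 16.2 and 12.6 CPM, and *Col28a1* at 10.2 and 0 CPM. *Col5a2* was counted in 13 mural cells and stood at 60.6 CPM in mural cells with under 4 fibroblast markers. *Col12a1* and *Col7a1* reached 24.2 and 19.4 CPM over all endothelial cells, in 1 and 2 cells. The remaining 14 stood at 4.76 CPM or less in each of the 3 types.

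Collagens of types IX and XI are known best from cartilage. *Col9a3*, a chain of the type IX collagen that decorates type II fibrils, stood at 78.9 and 81.4 CPM in the astrocytes of cortex 1 and 2 and at 103.8 and 91.38 CPM in those of hippocampus 1 and 2. It had 0 counts in all mural and endothelial cells, and 290 astrocytes had a count. Its astrocyte level was 5022 times the floor that 3 counts would give in mural cells, and it was called lower there (adjusted p = 0.0163, edgeR). That floor covers counting error only, and 0 counts allow up to 2.24% of mural cells with a count. *Col11a2*, a chain of the minor fibrillar type XI collagen, stood at 53.5, 33.3, 62.80 and 46.99 CPM in astrocytes and was at 0 in the vessel cells. Its astrocyte level was 2759 times the same floor, and it was called lower in mural cells (adjusted p = 0.0176, edgeR). Their relatives *Col9a1* and *Col11a1*, named after their values were seen, were likewise at 0 in mural cells. In astrocytes 15 and 34 cells had a count of them, at 0.218 to 3.11 CPM and 1.59 to 8.76 CPM. For both genes the share of astrocytes with a count lies under the 2.24% of mural cells that 0 counts allow, so the 0 does not separate the types. *Col9a2*, the remaining type IX chain and also named after its values were seen, was counted in 1 mural cell (6.85 CPM over all mural cells) and in 4 astrocytes (0.282 CPM). *Tcfl5*, on the opposite strand, shares 6.07% of the exon bases of *Col9a3*, whereas no other gene shares exon bases of *Col11a2*.

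**Figure D2:**
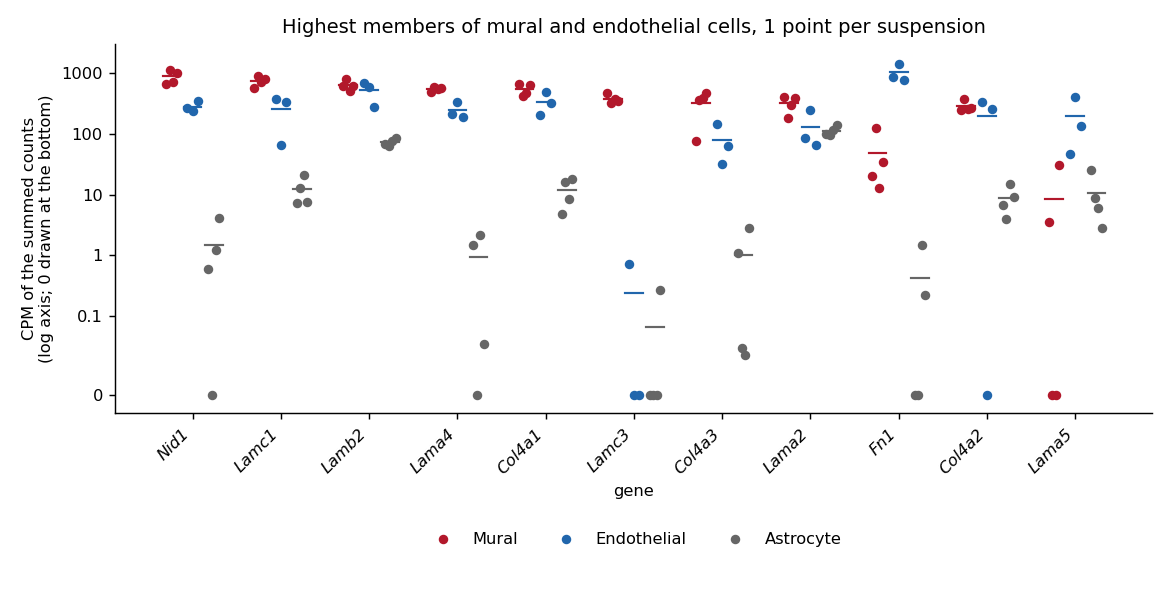
Level of the 8 highest matrix genes of mural cells and the 3 further ones among the 8 highest of endothelial cells, in CPM of the summed counts on a log axis with 0 drawn at the bottom. Points are suspensions (4 mural, 3 endothelial, 4 astrocyte) and bars their means; *Lama4* lies between 485 and 592 CPM in mural cells, *Fn1* between 758 and 1431 CPM in endothelial cells, and the points of *Lama2* lie between 64.2 and 400 CPM over all types.

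Endothelial cells were compared with astrocytes in the same fit. Of 40 genes tested, 8 were higher in endothelial cells, against 3.42% of all genes tested, and 5 were lower, against 19.1%. Higher were *Col4a1*, *Col4a3*, *Lama4*, *Lamb1*, *Lamb2*, *Lamc1*, *Nid1* and *Fn1*. Lower were *Col4a5*, *Col9a1*, *Col9a3*, *Col11a1* and *Col11a2*. The shares of astrocytes with *Col9a1* and *Col11a1* also lie under the 10% of endothelial cells with a count that 0 counts allow. The median log2 difference was -0.95, against -2.16 over all genes tested, with 13 genes at 0 in either type. With the suspension as a block 3 genes were called, *Col4a1*, *Lamb1* and *Lamb2*, against 2.68% of all genes, and without cortex 1, cortex 2, hippocampus 1 or hippocampus 2 the number called was 1, 6, 3 and 2, against 1.5%, 5.91%, 2.12% and 2.47% of all genes. DESeq2 called 10 of the 40 higher and 11 lower on the same sums, against 7.27% and 38.3% of all genes.

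Fibronectin was the leading matrix gene of endothelial cells. *Fn1* stood at 869 CPM in cortex 1, 1431 CPM in hippocampus 1 and 758 CPM in hippocampus 2 (1019 ± 360.8, SD, n = 3) and was counted in 23 of 30 cells. Its log2 difference from astrocytes was 10.94 ± 2.86 (adjusted p = 0.0327, edgeR). *Lamb2* followed, at 689.1 and 580.8 CPM in cortex 1 and hippocampus 1 and lower in hippocampus 2 (515.6 ± 213.6, SD, n = 3, log2 difference 2.05 ± 0.31, adjusted p = 0.00493, edgeR), and *Col4a1*, at 202.2, 482.6 and 316.2 CPM (3.93 ± 0.52, adjusted p = 0.00280, edgeR). Per kilobase these genes were at 76.6, 81.9 and 44.2 CPM over all endothelial cells, so that *Lamb2* was first by that measure. *Nid1* was at 260.5, 235.1 and 340.7 CPM, *Lamc1* at 370.4, 64.35 and 332.8 CPM and *Lama4* at 207.5, 336.6 and 186.8 CPM, all above every astrocyte value. *Lama5*, an alpha chain of endothelial basement membranes, was at 46.19, 400.2 and 136.6 CPM against 2.86 to 25.1 CPM in astrocytes and was not called (log2 difference 2.45 ± 2.68, adjusted p = 0.577, edgeR), and *Col4a2* was at 332.8, 0 and 256.1 CPM, with 0 in the 6 cells of hippocampus 1 (adjusted p = 0.133, edgeR).

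Several of these endothelial values moved with the mural markers that 20 of the 30 cells carried. In the 10 endothelial cells with counts of only 1 mural marker, which was *Rgs5* in each, *Fn1* was at 1187 CPM, *Lamb2* at 478.1, *Agrn* at 201.2, *Col4a1* at 168.3, *Nid1* at 142.4, *Lama4* at 111.6 and *Lamc1* at 70.27 CPM. In the 20 cells with 2 or more mural markers, *Fn1* was at 761.7 CPM and *Lamb2* at 507 CPM, whereas *Col4a1* was at 403.5, *Lamc1* at 366.4, *Nid1* at 351.6 and *Lama4* at 243.1 CPM. *Lama2* had 0 counts in the former and 149.1 CPM in the latter. When endothelial cells with 2 or more mural markers and the 13 mural cells with 2 or more endothelial markers were left out, a choice made after seeing the data, 0 of the 46 genes tested were higher in endothelial cells, against 0.827% of all genes, and 4 were lower (*Col5a2*, *Col9a3*, *Col11a2* and *Lama2*), against 9.91%. That fit held 2 endothelial sums, of 3 and 5 cells, both hippocampal. The log2 difference of *Lamb1*, which was 9.11 ± 1.30 with all cells (adjusted p = 0.00421, edgeR), became -8.75. The median log2 difference over all genes tested in that fit was -9.88, so the value does not set *Lamb1* apart from other genes. The part of mural transcripts in the endothelial values was not tested beyond this.

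**Figure D3:**
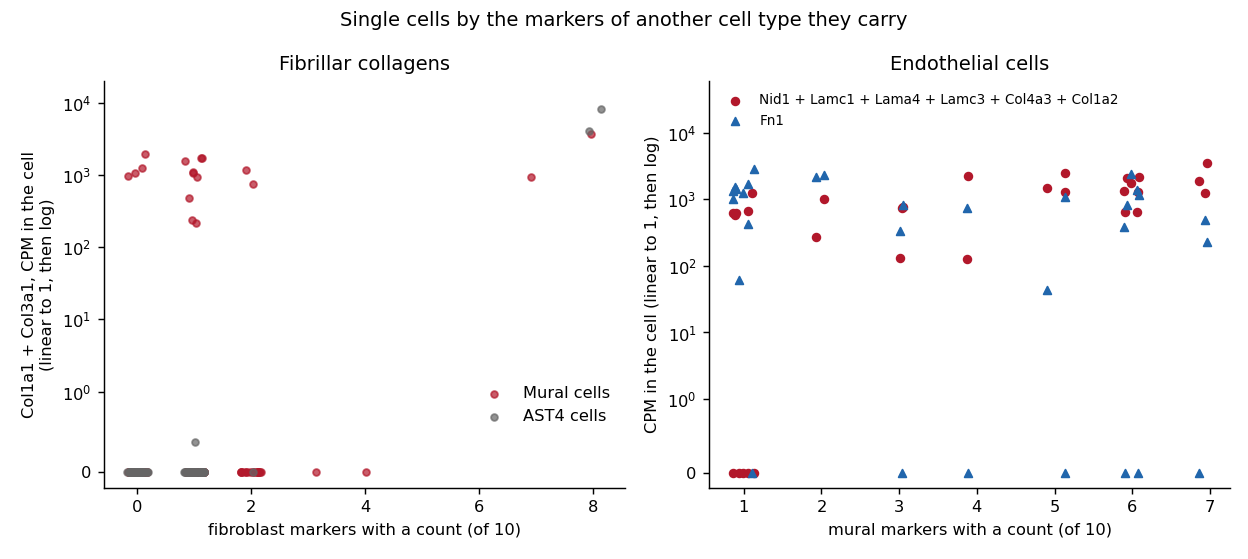
Left, summed CPM of *Col1a1* and *Col3a1* in each mural and AST4 cell against the number of 10 fibroblast markers with a count, on an axis that is linear to 1 and logarithmic above. The 4 cells at 7 and 8 markers lie at 934 CPM or above, a range that mural cells with fewer markers also reach, up to 1971 CPM. Right, each endothelial cell by its number of 10 mural markers, with the summed CPM of *Nid1*, *Lamc1*, *Lama4*, *Lamc3*, *Col4a3* and *Col1a2* (circles) and of *Fn1* (triangles). None of these genes was called between mural and endothelial cells by edgeR.

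No matrix gene passed the test between mural and endothelial cells: 0 of 40 were called by edgeR, against 1.7% of all genes tested, and 10 had an unadjusted p under 0.05, against 16% of all genes, whereas DESeq2 called 14 on the same sums, against 23.9% of all genes. The median log2 difference of the 40 was 1.61, against 0.22 over all genes. *Fn1* was at 47.5 CPM in mural and 1019 CPM in endothelial cells on average (log2 difference -3.78 ± 2.20, adjusted p = 0.461, edgeR), and *Lamc3* at 378.2 CPM in mural cells and 0.712, 0 and 0 CPM in the endothelial sums (10.61 ± 3.64, adjusted p = 0.223, edgeR). Over all 30 endothelial cells *Lamc3* was at 29.2 CPM, with 99.28% of its counts in 1 cell of cortex 2, which had too few cells for a sum. *Lama2* differed by 1.64 ± 0.48 and *Lamc1* by 1.63 ± 0.67 (adjusted p = 0.179 and 0.287, edgeR). *Lamb2* had a log2 difference of 0.45 ± 0.31 (adjusted p = 0.564, edgeR). A p that misses the threshold does not show that these levels were alike, as there were 3 endothelial sums of 6 to 12 cells.

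Astrocytes held low but even levels of a short list of matrix genes. *Lama2* was the first of them, at 98.59, 94.19, 116.3 and 137.7 CPM over the suspensions (111.7 ± 19.8, SD, n = 4), and was counted in 33.7% of cells. It was followed by *Col9a3* (88.9 ± 11.4 CPM), *Lamb2* (73.02 ± 9.52), *Agrn* (65.1 ± 10.6) and *Col11a2* (49.2 ± 12.4), each counted in 16.2% to 16.9% of cells. Per kilobase the order was *Col9a3* at 22.9 CPM, *Lamb2* at 11.9, *Col11a2* at 7.04, *Agrn* at 6.99 and *Lama2* at 6.75, of which the last 3 were nearly level. *Lama2* and *Lamb2*, which form a laminin trimer with a gamma chain, kept a steady proportion in astrocytes, *Lama2* being 0.533 to 0.605 times as high as *Lamb2* per kilobase over the 4 suspensions, against 0.0852 to 0.244 times in mural cells. *Lamc1*, the gamma chain of that trimer, was counted in 61 astrocytes and was, per kilobase, at most 0.205 times as high as *Lamb2*.

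*Col1a1* was counted in 20.2% of 1755 astrocytes, at 25.4, 28.8, 38.7 and 43.3 CPM. The value of hippocampus 2 was 25.3 CPM without the 2 AST4 cells with 8 fibroblast markers. Only 14 of the cells with *Col1a1* also had counts of *Col1a2*, and those same 2 AST4 cells were the ones with counts of *Col3a1*, so that 340 astrocytes had *Col1a1* without *Col1a2*. The remaining named genes were *Lama3*, at 26.5, 43.4, 13.9 and 8.36 CPM, with both cortical values above both hippocampal ones, and *Col16a1*, a fibril-associated collagen, at 20.3, 15.4, 15.0 and 27.4 CPM.

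**Figure D4:**
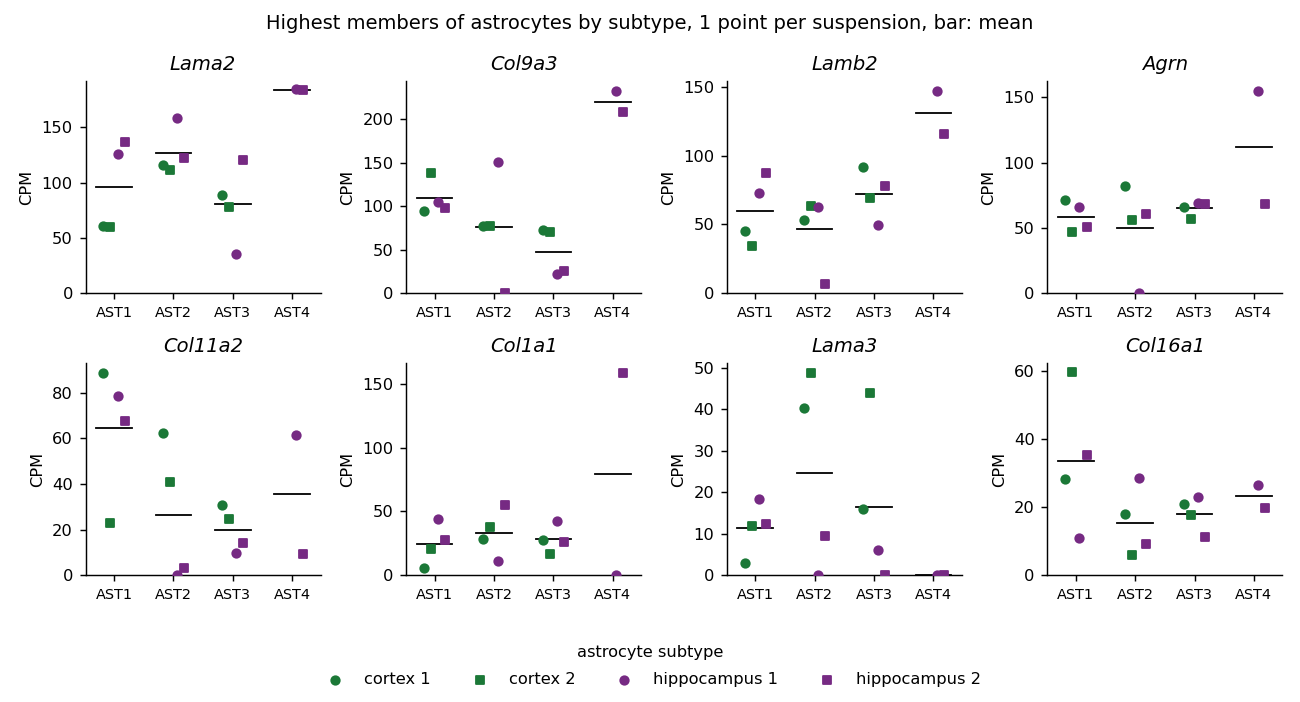
Level (CPM of the summed counts, linear axes from 0) of the 8 highest matrix genes of astrocytes in AST1 to AST4, with 1 point per suspension and a bar at the mean; AST4 has hippocampal points only. *Lama2* and *Col9a3* lie highest in AST4, *Lama3* reaches 48.8 CPM in cortical AST2, and the AST4 value of *Col1a1* is 0 in hippocampus 1 and 158.5 CPM in hippocampus 2.

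The second question was whether astrocyte subtypes differ in these genes. AST1, AST2 and AST3 had sums of at least 5 cells in all 4 suspensions and AST4 in the hippocampal ones only. Of 35 genes tested, 0 were called in any subtype against the others by edgeR, and 2 (AST1), 4 (AST2), 2 (AST3) and 5 (AST4) had an unadjusted p under 0.05, as had 5.55%, 5.69%, 3.79% and 13.5% of all genes. The share called over all genes was 0.179%, 0.238%, 0% and 2.81% in that order. DESeq2 called 7, 6, 5 and 8 of the 35, against 7.95%, 8.53%, 6.31% and 19.4% of all genes.

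The matrix genes summed to 1025 and 1273 CPM in AST4 of hippocampus 1 and 2, against 350.7 to 643.4 CPM in the suspensions of AST1 to AST3, and to 727 CPM in hippocampus 2 without its 2 cells with 8 fibroblast markers. *Lama2* was at 184.3 and 183.5 CPM in AST4 and was counted in 52.8% of its cells, against 28.98% to 36.38% in the other subtypes. *Col9a3* was at 207.5 CPM in hippocampus 2 and higher in hippocampus 1 (223.7 CPM over all AST4 cells), both above its highest value in any other subtype, which was 150.5 CPM in the 10 cells of AST2 in hippocampus 1. *Lamb2* was at 147.2 and 115.4 CPM, and *Agrn* at 154.7 and 68.5 CPM. None of these passed edgeR's test: the log2 differences of AST4 from the others were 0.43 ± 0.39 for *Lama2*, 1.62 ± 1.24 for *Col9a3*, 0.97 ± 0.62 for *Lamb2* and 0.87 ± 0.97 for *Agrn* (adjusted p = 0.708, 0.634, 0.540 and 0.781, edgeR). Limma on mean log values called all 4 higher in AST4. It called 12 of 42 genes, against 20.1% of all genes, the others being *Col3a1*, *Col4a1*, *Col4a2*, *Col4a3*, *Fn1*, *Lama1* and *Lama4*, higher, and *Col1a1*, lower. Of the AST4 counts, the 2 cells with 8 fibroblast markers held 100% for *Lama1* and *Col3a1*, 63.8% for *Col4a1*, 23.9% for *Col4a2*, 1.97% for *Lama4* and 0% for *Col4a3* and *Fn1*. *Lama3* had 7 counts in 1 AST4 cell and stood at 40.3 and 48.8 CPM in AST2 of the cortex, with a log2 difference of AST4 of -7.41 ± 3.39 (adjusted p = 0.370, edgeR).

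The level of several fibrillar genes in AST4 came from the 2 cells with 8 fibroblast markers, both of hippocampus 2. These cells had counts of 21 and 11 matrix genes, which took 2.25% and 0.990% of their counts, and *Col1a1* levels of 5880 and 3275 CPM. All AST4 counts of *Col1a2*, *Col3a1*, *Nid1* and *Lamb1* and 99.99% of those of *Col1a1* were theirs, whereas they held 0.0372% of those of *Lama2* and 0% of those of *Col9a3*. In the other 89 AST4 cells *Col1a1* had 1 count, or 0.00758 CPM (95% exact Poisson interval 0.000192 to 0.0422), against 32.2 CPM in AST1, 34.2 in AST2 and 25.6 in AST3. Without the 2 cells, a choice made after seeing the data, *Col1a1* was called lower in AST4 (adjusted p = 0.00137, edgeR), the 1 call among 35 genes, where 2.87% of all genes were called.

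The third comparison was between brain areas within a cell type, with 2 suspensions each. In mural cells, 1 of 44 genes tested was called, *Col1a1*, against 1.52% of all genes. It was at 0 in both cortical suspensions and at 35.3 and 72.5 CPM in the hippocampal ones (adjusted p = 0.00778, edgeR), and its counts were those of the 2 cells with 7 and 8 fibroblast markers, 1 in each hippocampal suspension. The difference between mural cells and the mean of AST1 to AST3 in the area effect was called for the same gene alone (adjusted p = 0.00993, edgeR; 1.62% of all genes were called). Without mural cells that had 4 or more fibroblast markers, 0 genes were called in both comparisons, and *Col1a1* had 0 counts in mural cells. The log2 differences in mural cells, hippocampus minus cortex, were 0.26 ± 2.09 for *Nid1*, 0.27 ± 2.06 for *Col4a1*, 0.33 ± 1.61 for *Lamc1*, -0.06 ± 0.70 for *Lamb2* and 0.46 ± 0.56 for *Lama2*. Mural, AST1, AST2 and AST3 sums shared a common estimate of each gene's spread in this fit. These standard errors are therefore not the spread of mural sums alone. The log2 differences were larger in size for *Col4a3* (1.33 ± 2.38) and, among other genes, for *Nid2* (4.91 ± 3.21) and *Col18a1*, a collagen of the basement membrane zone (-3.11 ± 3.12), both named after their values were seen. *Nid2* was at 8.32 and 0 CPM in the cortex and at 73.56 and 155.6 CPM in the hippocampus, and *Col18a1* at 32.1 and 123.3 CPM in the cortex and 13.96 and 0.0906 CPM in the hippocampus, both without overlap. None of these was called by edgeR. Limma on mean log values called *Col26a1*, *Col4a4* and *Lama1* higher and *Col18a1*, *Col5a2* and *Col6a2* lower in the hippocampus, against 2% of all genes, and the fit of mural sums alone called 0. Of the mural counts of *Lama1*, 74.1% were in the hippocampus 2 cell with 8 fibroblast markers. A p that misses the threshold with 2 suspensions per area does not show that the areas were alike.

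In astrocytes, 0 of 44 genes were called between areas in AST1, AST2 or AST3 by edgeR, and 1, 6 and 1 had an unadjusted p under 0.05, as had 3.9%, 11.3% and 2.81% of all genes. Over all genes 0%, 1.05% and 0.00538% were called. DESeq2 called 5, 9 and 7 of the 44, against 6.98%, 18.3% and 5.3% of all genes. In AST2 the fit with the suspension correlation as a block called *Col11a2* and *Col1a2* lower in the hippocampus, against 6.94% of all genes, and the fit of AST2 sums alone called neither. *Lama2* in AST1 was at 61.1 and 59.5 CPM in the cortex and at 125.6 and 136.4 CPM in the hippocampus, without overlap, with a log2 difference of 1.17 ± 0.57 (adjusted p = 1, edgeR). In AST2 it was at 115.6 and 111.3 CPM in the cortex and 158.1 and 121.9 CPM in the hippocampus (0.18 ± 0.56), and in AST3 at 89.1 and 77.5 CPM in the cortex against 35.90 CPM in hippocampus 1 and its highest value in hippocampus 2 (-0.05 ± 0.56). The hippocampal sums of AST2 held 10 and 22 cells, and the median log2 difference of all genes there was -0.85.

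Genes that fold, modify, cross-link, bind and degrade matrix were examined as 5 further lists. Over all genes tested, 3.25% were higher and 16.7% lower in mural cells than in astrocytes, and 3.42% were higher and 19.1% lower in endothelial cells. Of 16 tested collagen folding and modifying enzymes, 1 was higher and 1 lower in mural cells. *Serpinh1*, the collagen chaperone, was at 470 ± 160 CPM in mural cells and 110 ± 17.6 CPM in astrocytes (log2 difference 1.46 ± 0.24, adjusted p = 0.00822, edgeR). *P4ha3*, a prolyl hydroxylase subunit, was counted in 3.76% of astrocytes and 0 mural cells, which allows up to 2.24% of mural cells with a count. Its astrocyte level was 624 times the floor of 3 counts, which covers counting error only and is no lower bound on the difference. *P4hb* and *P4ha1*, further subunits of that enzyme, were at 521 ± 6.09 and 291.2 ± 40.2 CPM in astrocytes and at 549.2 ± 158.6 and 200.2 ± 86.2 CPM in mural cells, and were not called there (adjusted p = 0.402 and 0.368, edgeR). Of 9 tested genes for collagen processing and cross-linking, *Pcolce* and *Sparc* were higher in mural cells (6.42 ± 0.88 and 2.20 ± 0.54, adjusted p = 0.00323 and 0.0199, edgeR). Both were also higher in endothelial cells (adjusted p = 0.0215 and 0.0327, edgeR). *Loxl3*, a lysyl oxidase relative, was at 268.8 ± 146.8 CPM in mural cells and 76.4 ± 12.3 CPM in astrocytes and was not called (adjusted p = 0.793, edgeR). In endothelial cells 0 of the folding enzymes were higher and 3 lower, among them *P4hb* (log2 difference -1.50 ± 0.43, adjusted p = 0.0400, edgeR). Of 21 matrix receptors tested, 4 were higher and 4 lower in mural cells and 3 higher and 6 lower in endothelial cells, beside the shares of 3.25%, 16.7%, 3.42% and 19.1% over all genes. *Sdc4*, a syndecan, was at 1068 ± 126.9 CPM in astrocytes and 99.5 ± 29.9 CPM in mural cells (log2 difference -3.97 ± 1.35, adjusted p = 0.0756, edgeR). *Itga6*, the laminin receptor subunit, had 1 count in mural cells, against 125.8 ± 9.62 CPM in astrocytes and 230.9 ± 117.5 CPM in endothelial cells. *Itgb8*, an integrin subunit, was at 101.3 ± 29.1 CPM in astrocytes, had 2 counts in mural and 0 in endothelial cells, and was lower in both (adjusted p = 0.00129 and 0.00251, edgeR). *Dag1*, the dystroglycan that binds laminin and agrin, was at 418 ± 97.3 CPM in mural cells, and its mean CPM was lower in astrocytes. The fitted log2 difference of mural cells from astrocytes had the opposite sign and did not pass the test (-0.39 ± 0.50, adjusted p = 0.729, edgeR). The CPM are scaled by library totals alone, whereas the fitted difference also uses edgeR's TMM factors, so the 2 measures need not share a sign. The direction of *Dag1* between these types is therefore left undecided.

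Of 10 tested proteases and inhibitors, 0 were higher and 3 lower in both mural and endothelial cells, where 3.25% and 3.42% of all genes were higher and 16.7% and 19.1% lower. *Timp4*, a metalloproteinase inhibitor, was at 842 ± 50.1 CPM in astrocytes and had 1 count in mural and 3 in endothelial cells, and *Timp3* was at 626 ± 12.9 CPM in astrocytes against 143.2 ± 88.0 CPM in mural cells (log2 difference -2.70 ± 0.54, adjusted p = 0.0176, edgeR). *Mmp16*, a membrane-bound metalloproteinase, was at 12.5 ± 1.21 CPM in astrocytes, in 3.88% of cells, and at 0 in mural and endothelial cells. Its astrocyte level was 706 and 176.6 times the floor of 3 counts in these types. That floor covers counting error only and is no lower bound on the difference. The 0 counts allow up to 2.24% of mural and 10% of endothelial cells with a count, and the astrocyte share lies within the latter. Of 19 other matrix proteins of vessels, 4 were higher and 4 lower in mural cells and 4 higher and 7 lower in endothelial cells, beside the same shares over all genes. *Mgp*, an inhibitor of calcification, was at 707.6 ± 131.8 CPM in mural and 202.4 ± 76.7 CPM in endothelial cells and had 3 counts in all astrocytes. *Smoc1*, a relative of *Sparc*, was at 18.25 ± 9.595 CPM in astrocytes, in 4.79% of cells, was at 0 in mural cells and had 1 count in endothelial cells. Its astrocyte level was 1031 times the same floor in mural cells, with the same limits. *Ltbp1*, a binding protein of latent TGF-beta, was at 224.5 ± 40.2 CPM in astrocytes, 7.36 ± 14.7 CPM in mural cells and 0 in endothelial cells without passing the test (adjusted p = 0.215 and 0.0603, edgeR). *Sparcl1*, a secreted relative of *Sparc*, was at 7742 ± 1086 CPM in astrocytes, 5568 ± 237.8 in mural and 3496 ± 412 in endothelial cells, and was lower in both vessel types (adjusted p = 0.00346 and 0.000516, edgeR).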

How the data were processed

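Full-length cDNA of single sorted cells was sequenced by Smart-seq2, without molecular identifiers. According to the study's methods and the submitters' processing notes, the authors checked reads with FastQC 0.11.4, aligned them with STAR 2.5.2b to GRCm38 and counted them per gene with HTSeq without strand, and they deposited raw gene counts per cell. Of 2031 samples 2030 had a file and 1982 a type in the deposited annotation; 2027 columns of the series' joint table were not used. A median of 12.2% of a cell's reads lay outside exons and 4.80% were ambiguous; these and 92 ERCC spike-ins stayed out of all totals. Doublets were not called.

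Counts were summed per type and suspension (at least 5 cells, or 3 where cells with mural and endothelial markers were left out) and tested with edgeR 4.0.16 (TMM, low-count filter, quasi-likelihood, Benjamini-Hochberg adjustment over all genes, threshold 0.05), with area as a covariate between types. The cell types of a fit shared a common estimate of each gene's spread. The fitted log2 differences use TMM factors, which ran from 0.734 to 1.41 in the fit between types. The CPM do not use them, so a log2 difference is not the log ratio of the CPM beside it. The SE given with an edgeR log2 difference is the size of that difference divided by the square root of the test's F, not a fitted standard error. Neither is well determined where a group had few or 0 counts. DESeq2 1.42.0 and limma 3.58.1 were alternatives. The cell types of a suspension come from the same mice, which pairs them; the deviations of mural cells and astrocytes within a suspension correlated by 0.001 in cortex and 0.009 in hippocampus. Named are the 8 matrix genes with the highest mean CPM in each of mural cells, endothelial cells and astrocytes, those called between subtypes or areas, and, for each other list, the 2 largest changes and the 2 highest in astrocytes; further genes of short lists are given whole, and *Col9a1*, *Col9a2*, *Col11a1*, *Col18a1* and genes called by limma alone were added after their values were seen. The genes and lists were chosen with earlier results of these data known. The fits were also run on simulated counts with a smaller spread than these data had, which says nothing of power or false calls here. Genes not named are covered by counts and ranges, except 1 whose values are not reported here. Promoter windows came from RefSeq, in which 43 of the 60 genes had an entry; 45 gene IDs had the same version in the annotation used for exon lengths. R 4.3.3, Python 3.11.15, pandas 2.3.3 and scipy 1.17.1 were used.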

Additional observations from a re-analysis of the deposited data

Results flagged for a closer look

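The difference between hippocampus and cortex in *Col1a1* was larger in mural cells than in AST1 to AST3 by the test of that difference itself (adjusted p = 0.00993, edgeR). All mural counts of the gene were in the 2 cells with 7 and 8 fibroblast markers, and without cortex 1 or without cortex 2 the number of matrix genes called was 0, against 2.33% and 0.532% of all genes. In these fits *Col1a1* kept its direction and lost the call (adjusted p = 0.0916 and 0.202, edgeR), and the lone cortical sum of each type was assumed to vary like the other groups.

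Cell classes outside the comparisons also held matrix transcripts. In the 17 cells typed as neuronal, *Col11a1* was at 103.2 CPM (7 of 17 cells), *Col6a2* at 101.7 CPM (3 of 17) and *Agrn* at 13.7 CPM (3 of 17). In the 11 cells typed as microglial, *Col27a1* was at 59.01 CPM (3 of 11 cells). No test was run on these classes. Dixon's criterion was applied to 40 sets of 4 suspension values, and 0 had an outlying suspension. These sets do not cover every cell type for which a named gene is given.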

How the results depend on the processing

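With 2 to 4 suspensions per group, the number of matrix genes called depended on the tool. Between mural cells and astrocytes 14 were called, against 26 by DESeq2, 22 by limma on mean log values, 4 with the suspension as a block and 2 to 6 without 1 suspension. Over all genes the shares called were 19.9%, and 35.7% by DESeq2, 23.4% by limma and 3.05% with the block. Leaving out the fibroblast-marker astrocytes gave 15 calls, the added gene being *Col3a1*, against 20.1% of all genes. Between endothelial cells and astrocytes 13 were called, against 21 by DESeq2, 5 with at least 10 cells per sum (1 endothelial sum, assumed to vary like the other groups), 5 without the low-count filter, 4 without mixed cells (and with at least 3 cells per sum), 3 with the block and 1 to 6 without 1 suspension. The shares of all genes were 22.6%, and 45.6%, 4.65%, 2.76%, 10.7% and 2.68% in the order of the first 5 alternatives. Between mural and endothelial cells the 0 became 14 by DESeq2, 6 by limma, 1 with at least 3 cells per sum and 3 without mixed cells, against 1.7% of all genes, and 23.9%, 7.68%, 1.62% and 7.55% under these alternatives.

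For AST1 to AST4, DESeq2 called 7, 6, 5 and 8, against 7.95%, 8.53%, 6.31% and 19.4% of all genes. For AST4, limma called 12 (20.1% of all genes), the fit without the 2 cells with 8 fibroblast markers called 1 (2.87%), and fits without 1 suspension called 0 to 1 (1.55% to 2.43%). Between areas in mural cells, DESeq2 called 5 (16.2% of all genes), limma 6 (2%), the suspension correlation as a block 2 (2.97%), mural sums alone 0 (0%), leaving out cells with at least 2 or at least 4 fibroblast markers 0 and 0 (1.32% and 1.33%), and leaving out 1 suspension 0 to 2 (0.672% to 2.5%). For the difference from AST1 to AST3, DESeq2 called 6 (18.7%), limma 6 (1.32%), the block 3 (3.44%), the fits without fibroblast-marker cells 0 and 0 (1.36% and 1.43%) and those without 1 suspension 0 to 3 (0.532% to 4.04%). DESeq2 called 5, 9 and 7 between areas in AST1, AST2 and AST3, against 6.98%, 18.3% and 5.3% of all genes. AST2 had 2 with the block (6.94% of all genes) and 0 in the fit of its own sums (0%).

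On the log2 scale, *Col1a1* of AST4 went from 0.93 to -12.27 without the fibroblast-marker cells, to -1.08 by limma and to values from -15.81 to 1.81 without 1 suspension, the former without hippocampus 2. Fits between areas, or of AST4, without 1 hippocampal suspension leave a group with 1 sum, which was assumed to vary like the others, as do area fits without 1 cortical suspension. The mural area difference of *Col1a1* from AST1 to AST3 became -0.14 by limma and -0.69 and -0.69 without cells with at least 2 or 4 fibroblast markers. *Lamb1* between endothelial cells and astrocytes became -8.75 without mixed cells, where the median over all genes was -9.88. *Lamb2* between mural and endothelial cells became -0.41 by limma. Apart from the fibroblast-marker cells, the cause was not tested. Of the other log2 values, 504 kept direction and call, 100 lost the call and 16 gained it. Leaving out mixed cells, cells with at least 4 fibroblast markers, or fibroblast-marker astrocytes was chosen after seeing the data.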
